A study of Mus musculus with 4 samples.

Results

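The replication-dependent histone genes of the mouse sit in clusters and supply the histone proteins that package newly copied DNA. They were taken as every gene of the deposited count table whose symbol starts with Hist1h, Hist2h, Hist3h or Hist4h, which gave 67 of 23874 genes. Of these, 54 lie in the Hist1 cluster on chromosome 13, 10 in Hist2 on chromosome 3, 2 in Hist3 on chromosome 11 and 1, Hist4h4, on chromosome 6. By protein, 6 encode linker histone H1, 18 H2A, 18 H2B, 12 H3 and 13 H4.

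The libraries came from engineered neural tissue of the mouse, a culture of neurospheres set in Matrigel, a basement membrane gel, in N2 and B27 medium with 20 ng/ml basic fibroblast growth factor. In the EF group an electric field of 150 mV/mm had been applied for 30 min a day on 3 days, and the tissue was then kept for another 7 days. The noEF group was unstimulated tissue in the same medium. All sample titles read Day7, but the labels give a length of further culture for the EF group only. Whether the groups were matched in culture time is therefore not stated. The labels give the cells of both groups as neural stem cells, and whereas the sample labels call both groups engineered tissue, the series design names a suspension of neural stem cells as the control. The labels state 3 replicates, and 2 libraries of each group were analysed here. Whether these are separate cultures is not said, and the p-values then reflect the spread between the libraries at hand, technical spread included.

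Most mRNAs of these genes are made in S phase, have no intron and end not in a poly(A) tail but just after a short stem-loop. The stem-loop binding protein SLBP and the U7 small nuclear ribonucleoprotein direct that cut, and the loop then serves translation and the rapid decay of the message when DNA synthesis stops. Some histone genes also yield polyadenylated mRNAs from a signal farther downstream. Here RNA was captured on oligo(dT) beads, fragmented, primed with random hexamers and selected for a set range of insert lengths. Such libraries recover tailed messages, so the levels below are those of captured RNA and not of all histone mRNA.

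The sequences that set the type of message are the stem-loop and the polyadenylation signal at the annotated end. The histone stem-loop was searched as a 16-base pattern on the gene's strand of the annotated 3′ untranslated region (GENCODE M21, GRCm38). The pattern was GG YYY T HHTH A RRR CC, where Y is C or T, R is A or G and H is A, C or T. It was found in 46 of the 52 genes with at least 16 annotated bases in that region (88.5%), against 27 of 20825 other protein-coding genes of the table (0.130%). It began 21 to 58 bases after the stop codon, with a median of 31. It came in 8 versions, and the first one shown, in 26 genes, was the most frequent. In the next 3 lines capitals mark the paired arms and small letters the loop.
Stem-loop of Hist1h1c: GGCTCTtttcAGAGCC
Stem-loop of Hist1h4i: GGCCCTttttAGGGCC
Stem-loop of Hist1h4b: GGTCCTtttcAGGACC

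A signal AATAAA or ATTAAA, searched on the gene's strand in the last 50 annotated bases, was found in 17 of the 52 genes (32.7%) and in 75.2% of the other protein-coding genes. The 5 ends below all hold a signal and belong to genes with some of the highest levels. The last, Hist2h2be, has no stem-loop match. No signal was found in Hist1h2bc, the highest histone gene per length. Nor was one found in Hist2h2aa1, Hist2h2aa2 and Hist1h2bg, which are also among the highest. Capitals mark the signal. A match describes these letters only.
End of Hist1h1c: ttctAATAAAaagcgtttagtttt
End of Hist1h4i: ttacATTAAAagtattctatgcta
End of Hist3h2a: gcccAATAAAataagagtacgtgt
End of Hist2h3c1: tcccAATAAAaatttaacacactg
End of Hist2h2be: tattAATAAAgttaccgattagtt

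The annotated ends differed between genes. In 18 genes the annotation ran more than 200 bases past the stem-loop, and these held 50.4% of all counts of the histone genes. Most of this was Hist1h1c, with 13148 of the 18545 counts of the set. Another 6 genes had no stem-loop match in their annotated 3′ region and held 33.3%, mostly Hist1h2bc, with 11028 of 12249 counts. These shares thus follow single genes more than the type of annotated end. The 28 genes annotated to end within 200 bases of the stem-loop held 15.9%. The 15 whose annotation stops at the stop codon, or within 15 bases of it, held 0.432%. Because long annotations also collect more counts, levels between genes are given per length, as CPM per kb, which is counts scaled to library size (CPM, with TMM factors) per kilobase of annotated transcript. On that scale the medians of these 4 sets were 0.222, 0.491, 0.241 and 0.0567, so the genes with no annotated 3′ region were also lowest per length.

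Histone transcripts were a small part of each library. They took 9701 and 10176 counts in EF 1 and EF 2, against 8851 and 8057 in noEF 1 and noEF 2. As a share of all counts this was 0.0281% (95% Wilson interval 0.0275 to 0.0286) and 0.0300% (0.0294 to 0.0305) in EF and 0.0262% (0.0257 to 0.0268) and 0.0234% (0.0229 to 0.0239) in noEF. The intervals cover counting error only. Total counts were 33748880 to 34554537 per library, and between 42 and 48 histone genes had a count in each. In 6 genes no library had a count, and in the library that allows the most a count of 0 allows up to 3 counts or 0.0921 CPM. A minimum of 10 counts in 2 libraries, set for all genes, let 24 of the 67 through to the test, and the other 43 held 1.29% of the histone counts.

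Levels among the histone genes were uneven. The 8 genes with the highest mean CPM held 90.4% of the counts, and the 52 genes with under 100 counts in all libraries together held 2.67%. Per length, Hist1h2bc stood first at 70.0 CPM per kb and Hist1h1c next at 61.2. Then came Hist2h2aa1 at 27.1, Hist2h2aa2 at 16.4, Hist3h2ba at 12.7, Hist1h2bg at 11.4, Hist3h2a at 9.04, Hist1h4i at 6.38, Hist2h3c1 at 4.18 and Hist2h2be at 2.57. The order rests on annotated lengths, which run from 312 bases to 7425 bases with a median of 539, against a median of 3471 for all tested genes.

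**Figure D1:**
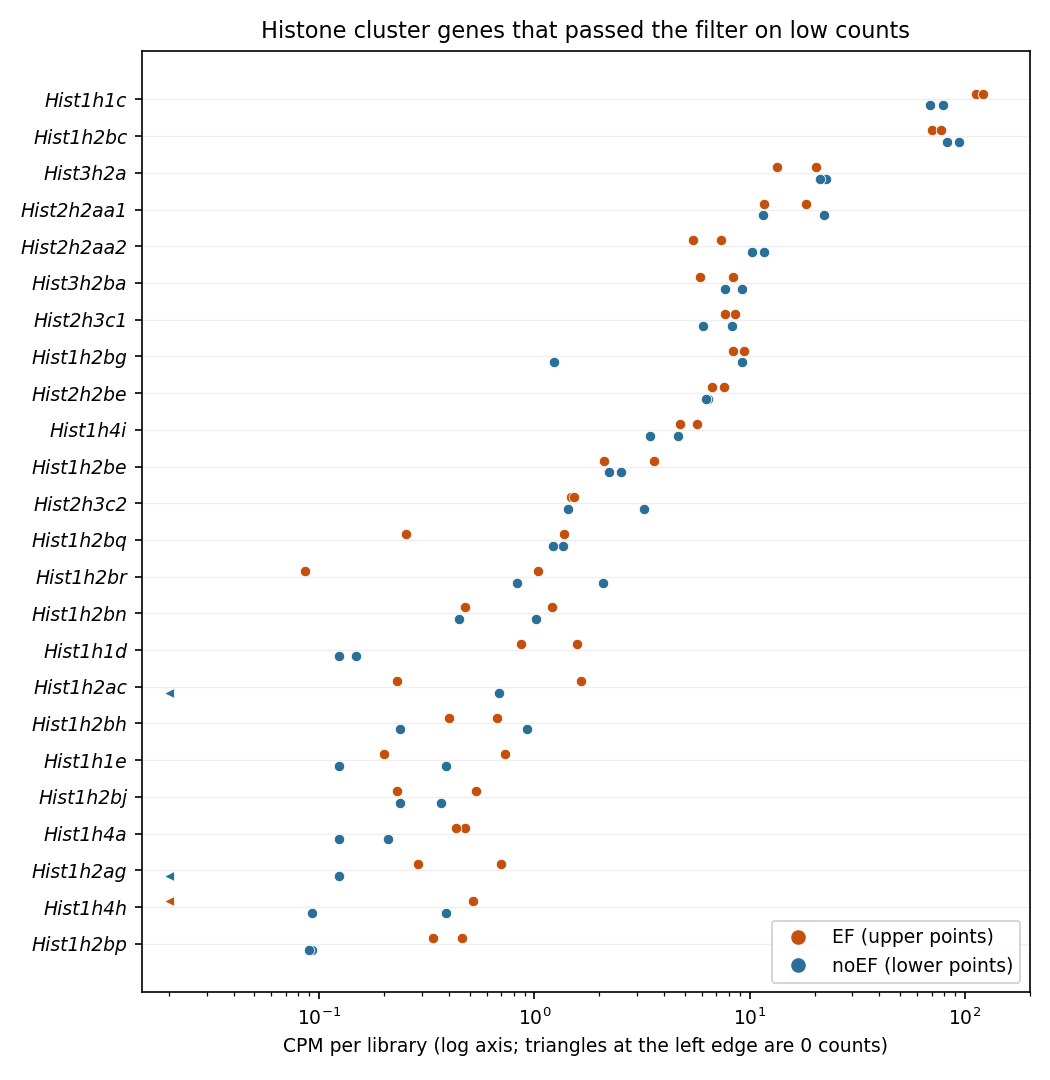
Levels of the 24 histone genes that passed the minimum on counts, in CPM per library on a log axis, with EF libraries as upper points and noEF libraries as lower points. Hist1h1c lies at 113 and 121 CPM in EF, right of its noEF points at 78.8 and 68.8 CPM, whereas 6 of the 10 genes below 1 CPM have points of both groups interleaved. Triangles at the left edge mark libraries with 0 counts.

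The comparison of EF with noEF asked which of these transcripts differ in the tissue after stimulation ended. With edgeR's quasi-likelihood F test and Benjamini-Hochberg adjustment over all 14263 genes tested, 3 of the 24 tested histone genes were called at an adjusted p under 0.05, beside 8.82% of all tested genes. The linker histone genes Hist1h1c and Hist1h1d were higher in EF (3.83% of all tested genes were higher), and Hist2h2aa2, a gene of H2A, was lower (4.99%). DESeq2 called Hist1h1c alone (11.2% of the genes with an adjusted p were called), and limma-voom called Hist1h1c and Hist2h2aa2 (9.14%). With 6 pairs that share sequence or exons summed, edgeR called Hist1h1c and Hist1h1d (8.83%). In 7 of the 24 both EF libraries lay above both noEF libraries, beside 27.6% of all tested genes, and in 3 both lay below, beside 26.8%. An unadjusted p under 0.05 was found for 5 of the 24, against 23.8% of all tested genes. The median log2 fold change of the 24 was 0.19, and it was 0.01 over all tested genes. Over the 14 histone genes with a mean of at least 1 CPM the median was -0.21. The minimum itself enters here, since 4 of the 24, Hist1h1d, Hist1h2ag, Hist1h2bp and Hist1h4a, reached it in both EF libraries and in neither noEF library.

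In sum, the histone genes gave 282 ± 14.04 CPM in the EF libraries and 256 ± 22.9 CPM in the noEF libraries (± SD, n = 2 per group), a ratio of 1.10. Single libraries summed to 271.7 and 291.6 CPM in EF and to 272.0 and 239.6 CPM in noEF, so the groups overlapped. No p is given for this sum over genes chosen with their results known, and an exact permutation of 2 against 2 libraries could not go below p = 0.333. One gene carried it: without Hist1h1c the sum was 164 ± 8.01 CPM in EF and 182 ± 15.8 CPM in noEF, a ratio of 0.904. In these bulk libraries fewer cells making a transcript and less RNA per cell cannot be told apart.

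**Figure D2:**
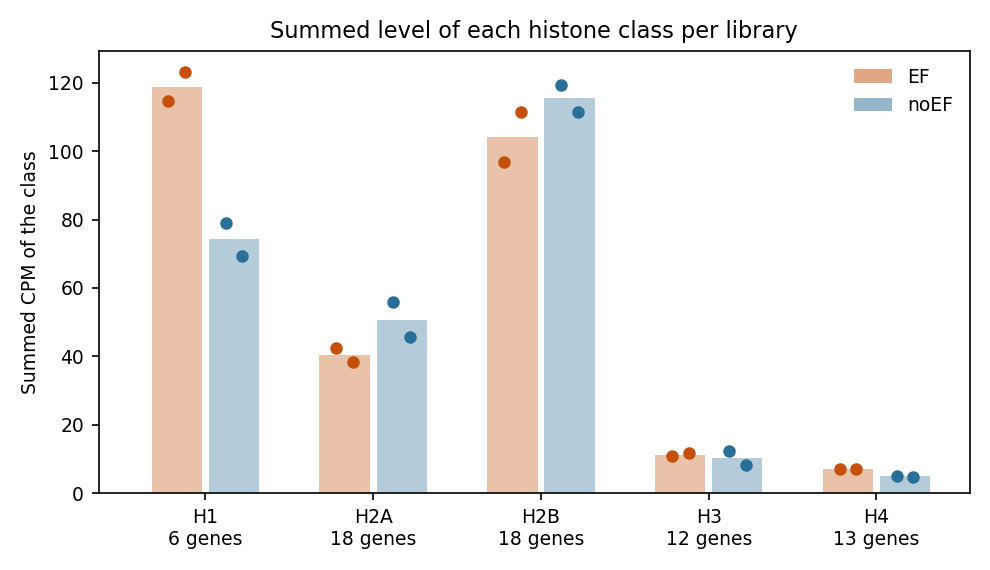
Summed CPM of each histone class per library, with bars for the mean of 2 libraries and points for single libraries, EF left of noEF in each pair. The H1 points are at 115 and 123 CPM in EF and at 79.1 and 69.5 CPM in noEF, the H2A points at 42.4 and 38.4 CPM in EF and at 56.0 and 45.5 CPM in noEF, and the upper EF and lower noEF points of H2B nearly touch.

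Cell type markers were read in the same libraries. The 8 neural stem and progenitor markers were all expressed, summing to 8075 and 8134 CPM in EF and 9392 and 9158 CPM in noEF, with 2 of 8 lower in EF. The 5 astrocyte markers summed to 1135 and 1105 CPM in EF and 1745 and 1807 CPM in noEF, with 3 of 5 lower and none at 0, where 4.99% of all tested genes were lower. The 7 oligodendrocyte markers summed to 446 and 495 CPM in EF and 465 and 463 CPM in noEF, with 1 lower. The 7 neuron markers summed to 54.5 and 62.4 CPM in EF and 68.6 and 74.8 CPM in noEF, with Stmn2 at 0 and none called. Of 6 microglia markers 5 were at 0 in every library (Aif1, Cx3cr1, Csf1r, Tmem119 and Ptprc). The part of the astrocyte marker difference in the histone results was not tested.

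Linker histone H1 binds DNA where it enters and leaves the nucleosome and compacts chromatin. Hist1h1c (ENSMUSG00000036181, chr13:23738808-23740367, plus strand, GRCm38) encodes subtype H1.2 and is a gene of 1 exon whose annotation runs 840 bases past the stem-loop. It had 4031 and 4238 counts in EF 1 and EF 2, against 2565 and 2314 counts in noEF 1 and noEF 2. These are 117 ± 6.03 CPM in the EF libraries and 73.8 ± 7.08 CPM in the noEF libraries (± SD, n = 2 per group). Both EF libraries exceeded both noEF libraries by more than the spread within either group. The log2 fold change was 0.67 with a standard error of 0.10, or 1.59-fold, and edgeR's adjusted p was 0.000761. Every one of the 14 alternative settings, among them each library left out and a fit free of any trend on length and GC content, kept the call, with log2 fold changes between 0.57 and 0.86 and adjusted p between 9.35e-10 and 0.00315. Of its 75-base stretches 6.66% occur in other genes of the table.

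Hist1h1c also took a larger share of histone counts in EF. That share was 41.6% (95% Wilson interval 40.6 to 42.5) in EF 1 and 41.6% (40.7 to 42.6) in EF 2. It was 29.0% (28.0 to 29.9) in noEF 1 and 28.7% (27.7 to 29.7) in noEF 2. Within the H1 class it supplied 98.5% to 99.6% of the counts of each library.

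Hist1h1d (ENSMUSG00000052565, chr13:23553262-23560686, plus strand), the gene of subtype H1.3, had 31 and 55 counts in EF against 4 and 5 counts in noEF. The counts are low, but those of EF are several times those of noEF in each pairing of libraries. The log2 fold change was 3.13 with a standard error of 0.89, and edgeR's adjusted p was 0.0404. The gene passed the minimum on counts through the EF libraries alone, the group in which it is high, so its call is given as a description. The call was kept in 5 of the 12 alternatives that gave an adjusted p, over which it ran from 0.0198 to 0.295, and was lost whenever any of the 4 libraries was left out. Its annotated exon of 7425 bases starts 1770 bases before the RefSeq start site and runs 4884 bases past the stem-loop, so counts assigned to it need not come from the histone message. At 0.0914 CPM per kb it was far below Hist1h1c per length.

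The other H1 genes, named after their values were seen, were near the limit of detection. Hist1h1e, the gene of subtype H1.4, had 26 and 7 counts in EF and 4 and 13 in noEF, so the groups overlapped (log2 fold change 0.86, standard error 1.08, edgeR adjusted p = 0.690). Its exon overlaps that of Hist1h2be on the same strand, so its counts depend on how shared reads were assigned. Both genes summed to 101 and 133 counts in EF and 86 and 88 in noEF. The sum was not called (log2 fold change 0.34, standard error 0.35, edgeR adjusted p = 0.619). Hist1h1b had 3 and 0 counts in EF and 0 and 4 in noEF, and the testis form Hist1h1t had 0 and 0 in EF and 2 and 0 in noEF. Hist1h1a had none.

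The upstream sequence of 62 of the 67 genes was found by older symbol in the RefSeq promoter set (GRCm38.p6). AAACACA, the letters known as the H1 box of linker histone promoters, was searched on both strands in the 250 bases before the start site. It was held by 5 of 6 H1 genes (83.3%), Hist1h1a being the exception, and by 6.25% of 32851 promoters. Among the core histones it was in 2 of 18 H2A, 2 of 16 H2B, 0 of 10 H3 and 0 of 12 H4 promoters. CCAAT was in 6 of 6 H1 promoters and 33.8% of all, and TATAAA in 4 of 6 and 12.4% of all, counted separately where matches overlap. The 130 bases just before the start site of Hist1h1c, the gene that differed most firmly, are shown with those of Hist1h1e. Each is written 5′ to 3′ on the gene's strand with the motif letters in capitals. The first lies at chr13:23738677-23738806 on the plus strand and the second at chr13:23622559-23622688 on the minus strand (GRCm38.p6).
Upstream of Hist1h1c: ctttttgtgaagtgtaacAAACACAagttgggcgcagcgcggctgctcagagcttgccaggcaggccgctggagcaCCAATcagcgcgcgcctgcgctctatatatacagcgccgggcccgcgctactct
Upstream of Hist1h1e: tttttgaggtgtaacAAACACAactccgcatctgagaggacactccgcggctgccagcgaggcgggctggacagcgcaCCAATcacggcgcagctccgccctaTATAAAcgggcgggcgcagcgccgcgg

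Both hold the H1 box and CCAAT in the same order, and the TATAAA letters are in the second alone. The search took exact letters, so the tatata stretch of the first was not counted. Per length Hist1h1c stood at 61.2 and Hist1h1e at 0.186 CPM per kb. Their annotated ends differ too, with the signal AATAAA in Hist1h1c and no signal in Hist1h1e. What underlies the difference in level was not tested.

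H2A, one of the 4 core histones of the nucleosome, had 5 of its 18 genes tested, of which 1 was called, lower in EF. Of all tested genes 4.99% were lower. The class summed to 40.4 ± 2.80 CPM in the EF libraries and 50.8 ± 7.42 CPM in the noEF libraries (± SD, n = 2 per group). Hist2h2aa2 (ENSMUSG00000063954, chr3:96239749-96240276, minus strand) had 263 and 190 counts in EF against 335 and 391 counts in noEF. The groups did not overlap, and edgeR gave a log2 fold change of -0.77 with a standard error of 0.21 and an adjusted p of 0.0357. The adjusted p ran from 0.00568 to 0.827 over 13 alternatives and missed the threshold in 5 of them. Removing the trend on length and GC content left a log2 fold change of -0.18, or -0.21 with the replicate block.

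Its neighbour Hist2h2aa1 (ENSMUSG00000064220, chr3:96245497-96246082, plus strand) is nearly the same gene on the other strand. Of the 75-base stretches of Hist2h2aa2, 100% occur in Hist2h2aa1, and 88.7% of those of Hist2h2aa1 occur in Hist2h2aa2. Hist2h2aa1 had 418 and 636 counts in EF and 719 and 388 counts in noEF, so the groups overlapped (log2 fold change -0.17, standard error 0.43, edgeR adjusted p = 0.872). Its share of the pair's counts was 61.4% and 77.0% in EF and 68.2% and 49.8% in noEF. Summed, which removes the split of shared reads, the pair had 681 and 826 counts in EF and 1054 and 779 counts in noEF. The sum overlapped between groups and was not called (log2 fold change -0.38, standard error 0.18, edgeR adjusted p = 0.213). With the 2 genes counted as 1, nothing of the class was called lower.

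Hist3h2a (ENSMUSG00000078851, chr11:58954685-58956830, plus strand) gave the most H2A counts. It had 729 and 466 counts in EF and 739 and 711 counts in noEF, with a log2 fold change of -0.38, a standard error of 0.19 and an edgeR adjusted p of 0.252. It was called lower without EF 1 (adjusted p = 0.0336, where 13 alternatives spanned 0.0336 to 0.826). Its exon overlaps that of Trim17, a ubiquitin ligase gene on the same strand named for that overlap, which had 25 and 259 counts in EF and 13 and 30 counts in noEF. EF 2 was thus low in Hist3h2a and high in Trim17. The sum of both was even, at 754 and 725 counts in EF and 752 and 741 counts in noEF (log2 fold change -0.11, standard error 0.14, edgeR adjusted p = 0.705).

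**Figure D3:**
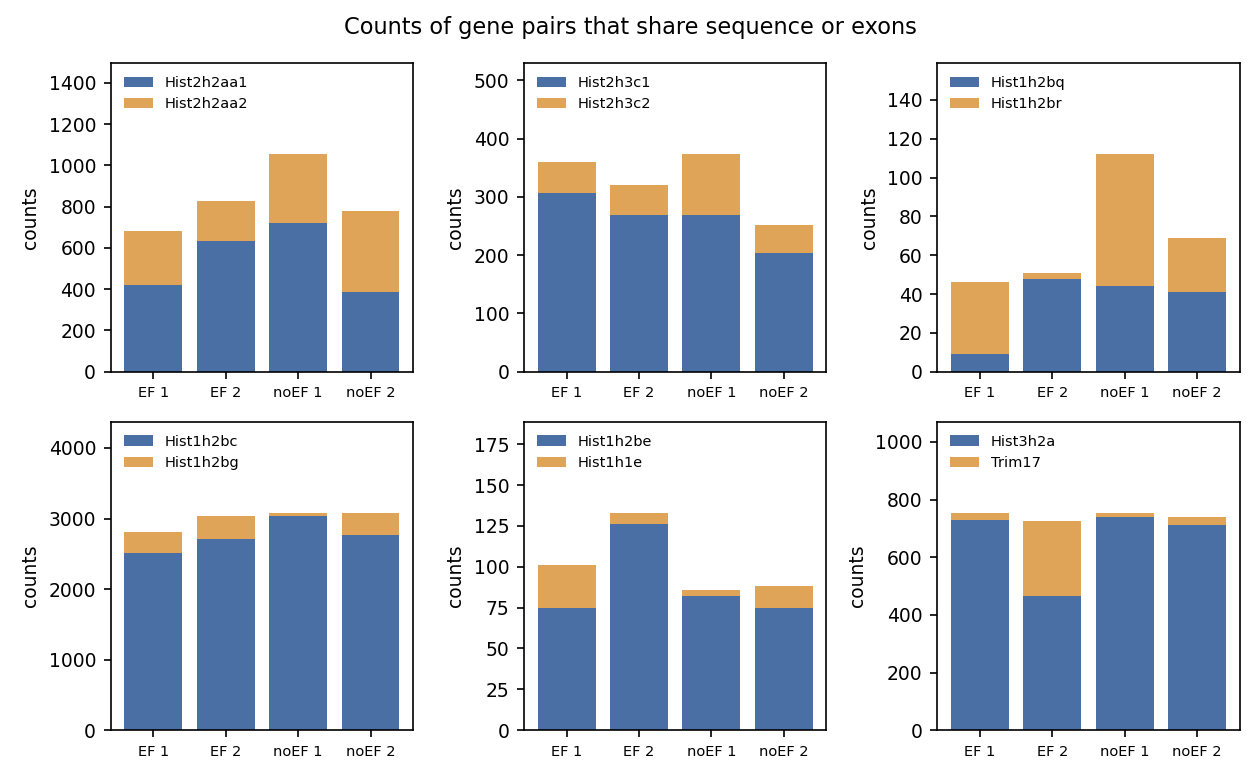
Counts of 6 gene pairs that share sequence or exons, stacked per library with EF left of noEF, the first gene of the pair at the base and the second on top. In noEF the second gene of Hist1h2bc with Hist1h2bg has 40 and 309 counts under sums of 3081 and 3080, and in EF it has 298 and 328 counts under sums of 2804 and 3038.

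H2B pairs with H2A in the nucleosome. Of its 18 genes 11 were tested and none was called by edgeR, DESeq2 or limma-voom. Over all tested genes edgeR called 8.82% and limma-voom 9.14%, and DESeq2 called 11.2% of those with an adjusted p. DESeq2 gave an adjusted p for only some of the 11 and could not call the others. At an unadjusted p under 0.05 there was 1 lower, beside 23.8% of all tested genes in both directions. The class summed to 104 ± 10.3 CPM in the EF libraries and 116 ± 5.52 CPM in the noEF libraries (± SD, n = 2 per group). Hist1h2bc (ENSMUSG00000018102, chr13:23684199-23692908, plus strand), the highest histone gene per length, had 2506 and 2710 counts in EF against 3041 and 2771 counts in noEF. Both EF libraries were below both noEF libraries in CPM, and the log2 fold change was -0.25 with a standard error of 0.10 and an edgeR adjusted p of 0.145. Without noEF 2 the gene was called lower (adjusted p = 0.0412). Removing the trend on length and GC content brought its log2 fold change to 0.0036 (adjusted p = 0.987). Over the 13 alternatives that gave one, its adjusted p lay between 0.0412 and 0.991. Its annotation has 2 exons and a 3′ untranslated region of 742 bases that holds no stem-loop match.

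Hist1h2bg (ENSMUSG00000058385, chr13:23571396-23572013, plus strand) shares 42.5% of its 75-base stretches with Hist1h2bc. It had 298 and 328 counts in EF against 40 and 309 counts in noEF, so that noEF 1 alone was low. The log2 fold change of 0.77 had a standard error of 1.23 and an edgeR adjusted p of 0.800. That value turned on noEF 1 and noEF 2: it was -0.049 without noEF 1 and 2.85 without noEF 2 (adjusted p = 0.966 and 1.06e-09, the ends of its range over 13 alternatives). Summed with Hist1h2bc the log2 fold change was -0.17, with a standard error of 0.09 and an edgeR adjusted p of 0.30. In noEF 1, where Hist1h2bg was low, Hist1h2bc was at its highest. The pair's sum was 94.7 CPM in noEF 1 and 91.6 CPM in noEF 2.

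Hist3h2ba (ENSMUSG00000056895, chr11:58948920-58949533, plus strand) shares no 75-base stretch with another gene of the table. It had 209 and 292 counts in EF and 299 and 259 counts in noEF, and the groups overlapped (log2 fold change -0.25, standard error 0.23, edgeR adjusted p = 0.572). Its log2 fold change turned to 0.26 once the trend on length and GC content was removed. Hist2h2be, chosen after its values were seen because it too shares no stretch, had 239 and 265 counts in EF and 209 and 210 counts in noEF. Its log2 fold change was 0.17 with a standard error of 0.23 (edgeR adjusted p = 0.701), so the difference was within the error although the EF libraries lay above. The near-identical Hist1h2bq and Hist1h2br, picked in the same way, summed to 46 and 51 counts in EF and 112 and 69 counts in noEF, which was not called (log2 fold change -0.996, standard error 0.45, edgeR adjusted p = 0.187).

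H3 and H4 form the core tetramer of the nucleosome, and both classes were low here. The 12 H3 genes summed to 11.2 ± 0.561 CPM in the EF libraries and 10.3 ± 2.78 CPM in the noEF libraries (± SD, n = 2 per group). Of the 2 tested none was called by edgeR, DESeq2 or limma-voom or had an unadjusted p under 0.05. DESeq2 gave an adjusted p for Hist2h3c1 alone. Over all tested genes edgeR called 8.82% and limma-voom 9.14%, and 23.8% had an unadjusted p under 0.05. DESeq2 called 11.2% of those with an adjusted p. Hist2h3c1 (ENSMUSG00000093769, chr3:96246685-96248509, plus strand) had 306 and 268 counts in EF and 268 and 203 counts in noEF (log2 fold change 0.19, standard error 0.23, edgeR adjusted p = 0.674). The sum with its close copy Hist2h3c2 was 359 and 321 counts in EF and 373 and 251 counts in noEF (log2 fold change 0.03, standard error 0.22, edgeR adjusted p = 0.965). The groups overlapped in the sum.

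The 13 H4 genes summed to 7.05 ± 0.0871 CPM in the EF libraries and 4.89 ± 0.348 CPM in the noEF libraries (± SD, n = 2 per group), or 254 and 244 counts in EF against 167 and 156 counts in noEF. The class sums did not overlap, at a ratio of 1.444. None of its 3 tested genes was called by edgeR, DESeq2 or limma-voom or had an unadjusted p under 0.05. Among all tested genes edgeR called 8.82%, limma-voom 9.14%, and 23.8% had an unadjusted p under 0.05, while DESeq2 called 11.2% of those with an adjusted p. Of the 3, DESeq2 gave an adjusted p for Hist1h4i alone and could not call the others. Hist1h4i (ENSMUSG00000060639, chr13:22040636-22041362, minus strand) had 204 and 166 counts in EF against 151 and 116 counts in noEF. Its log2 fold change was 0.37 with a standard error of 0.29 (edgeR adjusted p = 0.471). Hist4h4, the lone gene on chromosome 6, had 0 and 4 counts in EF and none in noEF and was not tested.

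**Figure D4:**
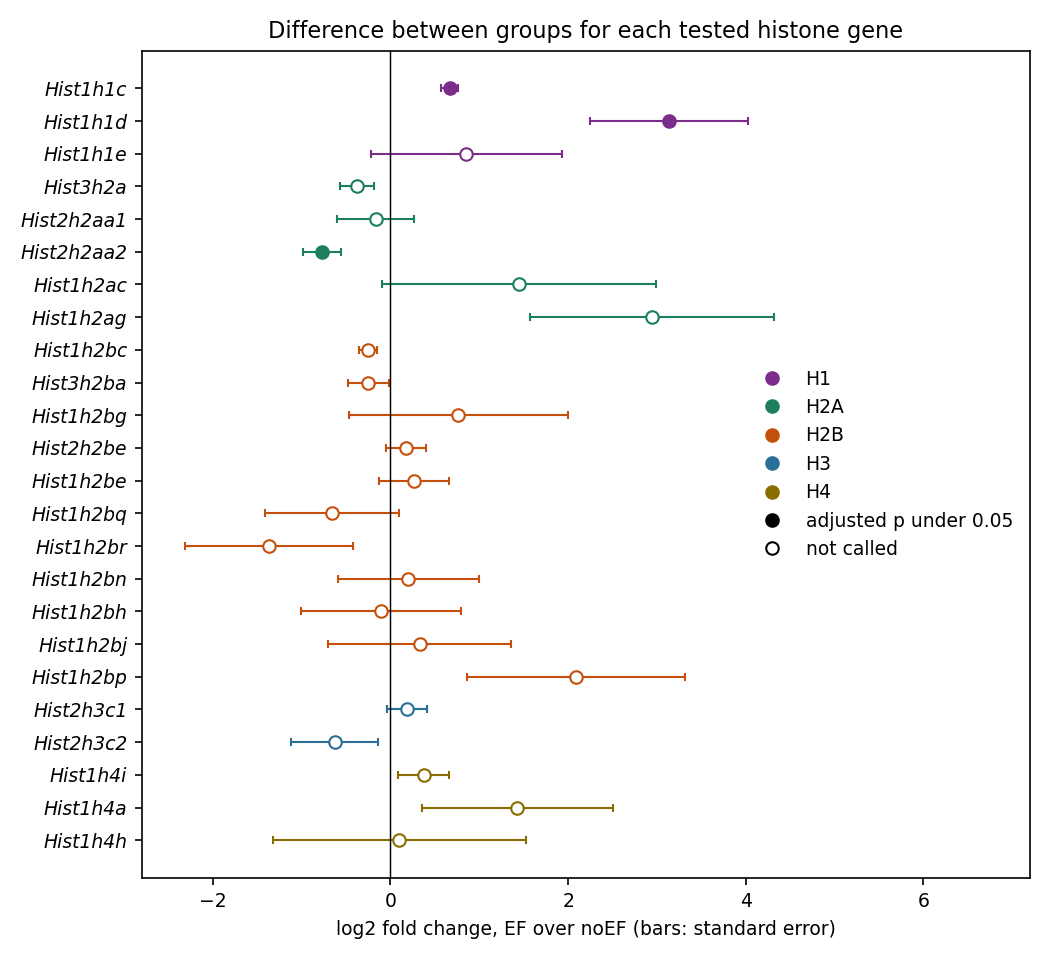
Log2 fold change of EF over noEF for each of the 24 tested histone genes, grouped by class and ordered by level within it, with standard errors from the edgeR fit. Filled points are the 3 genes called, and the standard errors run from 0.10 for Hist1h1c to 1.54 for Hist1h2ac, so that several large fold changes of low genes have bars that come near or cross 0.

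The genes that make, process and use histone mRNA were read as 6 lists of 76 genes, all of which were tested. Of 6 genes of histone gene transcription 1 was higher and none lower, where an unadjusted p under 0.05 gave 3 higher and none lower. For all tested genes these shares were 3.83% higher and 23.8% at an unadjusted p under 0.05. That gene was Cdk2, the kinase that with cyclin E activates the coactivator NPAT at histone genes, at 44.4 and 43.6 CPM in EF against 27.7 and 26.0 CPM in noEF (log2 fold change 0.71, standard error 0.12, edgeR adjusted p = 0.00229). Npat itself had 34.8 and 27.7 CPM in EF and 24.5 and 32.2 CPM in noEF, which overlapped (log2 fold change 0.14, standard error 0.16, edgeR adjusted p = 0.651). The median log2 fold change of this list was 0.34.

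Of 11 genes of histone 3′ end processing 2 were higher and none lower, with a median of 0.15, while an unadjusted p under 0.05 gave 4 higher and 3 lower and limma-voom called 1 lower. Among all tested genes 3.83% were higher, 4.99% lower and 23.8% at an unadjusted p under 0.05. Slbp, which binds the stem-loop, had 60.6 and 54.9 CPM in EF against 41.7 and 36.5 CPM in noEF (log2 fold change 0.56, standard error 0.12, edgeR adjusted p = 0.00792). Ncbp1, the large subunit of the cap-binding complex, had 80.7 and 77.7 CPM in EF against 59.2 and 58.8 CPM in noEF (log2 fold change 0.42, standard error 0.10, edgeR adjusted p = 0.0135). In both genes the EF libraries were clear of the noEF libraries, yet both calls were lost without EF 1 (adjusted p = 0.0756 for Slbp, where 14 alternatives spanned 6.36e-05 to 0.0756, and 0.113 for Ncbp1, where they spanned 0.00112 to 0.113). None of the 5 genes of histone mRNA decay was called by edgeR, DESeq2 or limma-voom, with 1 at an unadjusted p under 0.05 and a median of 0.03.

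Histone chaperones, which carry histones to chromatin, had 6 of 23 genes higher and none lower, and 13 higher and 0 lower at an unadjusted p under 0.05. Of all tested genes 3.83% were higher and 23.8% had such a p, and the median of the list was 0.27. Chaf1a, the large subunit of the chromatin assembly factor at replication forks, had 27.6 and 21.6 CPM in EF against 15.2 and 12.6 CPM in noEF (log2 fold change 0.82, standard error 0.17, edgeR adjusted p = 0.00738). Its partner Chaf1b had 23.0 and 25.1 CPM in EF against 12.7 and 17.3 CPM in noEF (0.68, standard error 0.17, edgeR adjusted p = 0.0218). The call of Chaf1a was lost without EF 1 (adjusted p = 0.0708, where 14 alternatives spanned 2.79e-05 to 0.0708), and that of Chaf1b without EF 2 (0.0792) and without noEF 1 (0.149, where they spanned 0.000549 to 0.149). Nasp, which binds free H3 and H4 and linker histone, had 103 and 105 CPM in EF against 66.8 and 77.8 CPM in noEF (0.52, standard error 0.10, edgeR adjusted p = 0.00442), and Hjurp, which loads the centromeric H3, had 87.7 and 83.2 CPM in EF against 55.2 and 61.1 CPM in noEF (0.55, standard error 0.10, edgeR adjusted p = 0.00312). The other 2 higher genes were Hat1, which acetylates new H4, and Nap1l1, a carrier of H2A and H2B. With library totals the list held 13 higher genes, but 1138 of all 14263 tested genes were then higher, against 546 in the main fit. Without EF 1 fewer genes were higher, both in the list and among all tested genes.

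Most mRNAs of the replication-independent histone genes are spliced or polyadenylated as others are. Of this list 0 of 11 were called by edgeR, with 2 higher and 1 lower at an unadjusted p under 0.05. DESeq2 and limma-voom each called 1 higher, and the median was 0.05. Of all tested genes 8.82% were called by edgeR and 9.14% by limma-voom, and 23.8% had an unadjusted p under 0.05. DESeq2 called 11.2% of the genes with an adjusted p. H2afz, the main H2A.Z gene, had 477 and 525 CPM in EF against 432 and 393 CPM in noEF (log2 fold change 0.28, standard error 0.09, edgeR adjusted p = 0.0552). It was called in 8 of 14 alternatives, DESeq2 and limma-voom among them, with adjusted p between 4.64e-05 and 0.306. H3f3b, a gene of H3.3, had 671 and 669 CPM in EF against 568 and 611 CPM in noEF (0.18, standard error 0.08, edgeR adjusted p = 0.174). The replacement linker histone H1f0 had 75.7 and 74.96 CPM in EF and 81.3 and 70.7 CPM in noEF (-0.01, standard error 0.10, edgeR adjusted p = 0.959), and was chosen after its values were seen.

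Genes of DNA synthesis in S phase had 15 of 20 higher and none lower (17 and 0 at an unadjusted p under 0.05), beside the same 3.83% higher and 23.8% at an unadjusted p among all tested genes, with a median of 0.62. Rrm2, a subunit of ribonucleotide reductase, had 164 and 160 CPM in EF against 83.9 and 89.4 CPM in noEF (log2 fold change 0.90, standard error 0.09, edgeR adjusted p = 2.71e-05). Mcm6, Mcm3 and Mcm4, subunits of the replicative helicase, had log2 fold changes of 0.84, 0.77 and 0.74. Against this list, the median of the 24 tested histone genes was 0.19 and that of the 14 with at least 1 CPM was -0.21. For all tested histone genes the median was 0.43 with the trend on length and GC content removed. With 1 library left out it ran from -0.010 without EF 2 to 0.43 without noEF 1. The DNA synthesis median of 0.62 is from the main fit, and its value in those settings is not given here. The difference between the lists was not tested.

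**Figure D5:**
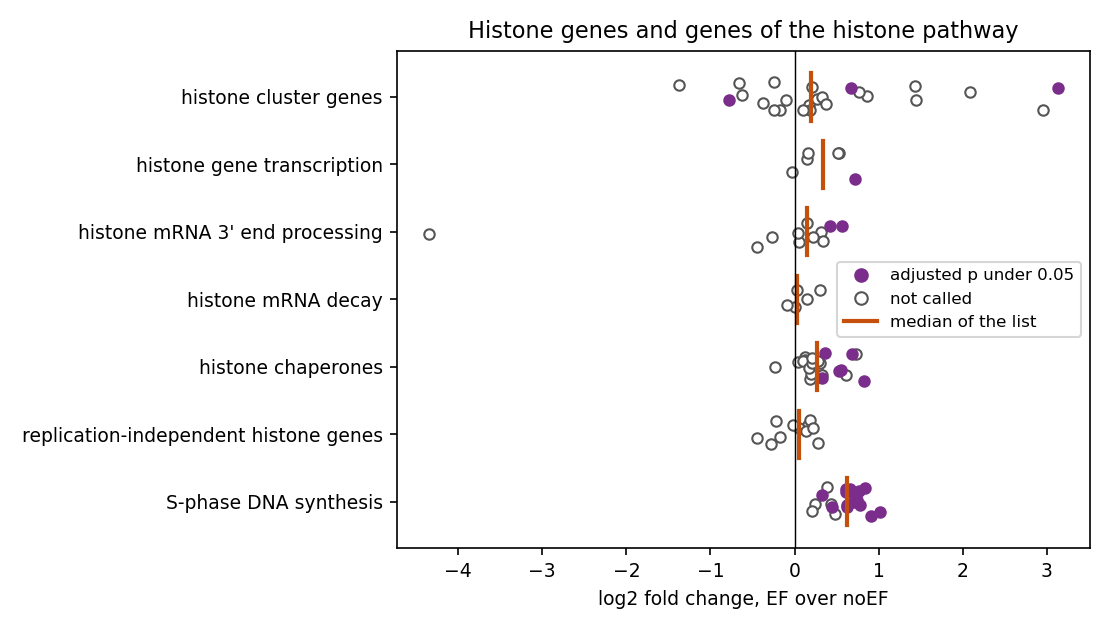
Log2 fold change of EF over noEF for the tested histone genes and for the genes of 6 lists of the histone pathway and of DNA synthesis, with filled points for an adjusted p under 0.05 and bars for each list's median. All 20 DNA synthesis genes lie above 0 around a median of 0.62, while the histone genes spread on both sides of 0. The point at the far left is Zfp473, a processing factor with 0 and 2 counts in EF and 20 and 23 in noEF, which was not called.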

How the data were processed

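RNA sequencing of 4 libraries, 2 EF and 2 noEF, was analysed; groups were taken from the sample titles and columns from the labelled library names. RNA was captured with oligo(dT), fragmented, primed with random hexamers, size selected and amplified per the labels' protocols, with no step described that keeps the strand. The deposited values are whole-number counts per gene, not scaled, as their values show. The submitters' processing notes list HISAT2 2.0.4, StringTie 2.2.1, DESeq2 1.44.0 and GRCm38; not given in the sources used here are the counter, its annotation, its strand setting and how it treated reads that match several genes.

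Counts were tested with edgeR 4.0.16 in R 4.3.3 (filterByExpr, minimum count 10 and minimum total 15, TMM, quasi-likelihood F test with robust fit) across all 23874 genes, and p-values were adjusted by Benjamini-Hochberg over the 14263 that passed. Log2 fold changes are EF over noEF, with a standard error computed as their size over the root of the F statistic. The tests were tried on simulated counts with known changes. Total counts per library were 33748880 to 34554537, so that 3 counts are under 0.1 CPM, and intervals and floors cover counting error only. Within a group the chi-square of the counts was 18.7 (EF) and 19.8 (noEF) per degree of freedom, which shows more than sampling noise between replicates.

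Annotation was that of GENCODE M21 (GRCm38) for all 67 histone genes, with the longest transcript of each, and promoters from RefSeq. Sharing between genes is the percentage of a transcript's 75-base stretches that occur in another gene of the table. The alternatives were DESeq2's size factors or library totals, no minimum on counts or one of 1 CPM in at least 2 libraries, the tests of DESeq2 1.42.0 and of limma-voom 3.58.1, the replicate number as a block, a trend on length and GC content removed (loess, span 0.3) without and with that block, each library left out, and the counts of 6 gene pairs summed, which was chosen after seeing the data.

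The histone genes, the lists and the rule for naming genes were chosen with earlier results of these data known. Named were the histone genes called, the 8 with the highest mean CPM, the most abundant of each class and cluster, up to 4 called genes of each list with the smallest p, and Slbp, Npat, H2afz and H3f3b; others named are said to be picked after their values were seen. Zcchc6 and Zcchc11 of the lists were found under the symbols Tut7 and Tut4.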

Additional observations from a re-analysis of the deposited data

How the results depend on the processing

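Hist1h1c kept its call in all 14 alternatives. The summed histone level, EF over noEF, was 1.04 to 1.18 in the 6 in which it was computed, the other scalings and the libraries left out. The other counts moved. Over all genes, 546 were higher and 712 lower, against 1138 higher with library totals, 915 higher and 1203 lower with no minimum on counts, 412 lower with the length and GC trend removed and the replicate block, and 217 to 790 higher and 337 to 1065 lower when 1 library was left out (3.76% to 12.6% of tested genes in both directions, fewest without EF 1). Library totals shift the median log2 fold change of all genes to 0.09, from 0.01. Histone genes called higher were 2, and 1 with at least 1 CPM in 2 libraries (Hist1h1d is then not tested), DESeq2 (adjusted p of Hist1h1d not given), limma-voom, the replicate block, or the trend removed with the replicate block, and 1 to 3 with 1 library left out. Histone genes called lower were 1, and 0 with DESeq2, the trend removed without or with the replicate block, or the pairs summed, and 0 to 3 with 1 library left out. DESeq2 gave an adjusted p for 11 histone genes and none for 50. The median log2 fold change of tested histone genes, 0.19, was -0.21 with at least 1 CPM in 2 libraries, 0.43 with the trend removed, 0.36 with the trend removed and the replicate block, and -0.010 to 0.43 with 1 library left out.

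Signs turned for genes that were not called. With the length and GC trend removed, without and with the replicate block, Hist1h2bc was at 0.0036 and 0.0036, Hist2h2aa1 at 0.38 and 0.40, and Hist3h2ba at 0.26 and 0.26. With 1 library left out the log2 fold changes ran from -0.57 to 0.38 for Hist2h2aa1, -0.022 to 0.43 for Hist2h3c1, -0.049 to 2.85 for Hist1h2bg and -0.039 to 0.35 for Npat. For these changes the cause was not tested, apart from the smaller number of samples or genes that a setting itself brings. Leaving out 1 library leaves a lone sample that is assumed to vary like the other group.

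Nothing in the labels says that same-numbered libraries are paired, and the library name of EF replicate 2 carries another number. Deviations of same-numbered libraries from their group means correlated at r = -0.09 over 14263 genes. With 2 libraries per group this cannot show whether they share a culture or batch. With the replicate block 978 genes were called (6.86%), 1 histone gene was higher and 1 lower, and the adjusted p of Hist1h1d was 0.0705. Of the 52 histone genes under 100 counts in all, 43 were not tested and 1 of the other 9 was called, beside 8.82% of all tested genes. What fold these depths could show was not tested.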

Other observations

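The 43 histone genes that did not reach the minimum on counts had 94 and 194 counts in EF and 89 and 98 counts in noEF, so EF 2 stood above the other 3 libraries. Hist1h3d, an H3 gene picked after its values were seen, supplied 55 of those in EF 2, and had 8 counts in EF 1 and 7 and 8 counts in noEF. The germ cell and early embryo markers, read because some of the silent histone genes are testis forms, had Pou5f1 at 0 and summed to 1.85 and 1.43 CPM in EF and 2.09 and 1.16 CPM in noEF, and the testis H2B gene Hist1h2ba had no count.

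Promoter letters varied by class. CCAAT, searched on both strands in 250 bases before the start site, was in 18 of 18 H2A, 16 of 16 H2B, 8 of 10 H3 and 3 of 12 H4 promoters, beside 33.8% of all promoters. TATAAA was in 7 of 18 H2A, 8 of 16 H2B, 4 of 10 H3 and 6 of 12 H4 promoters, beside 12.4%.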
